A study of Mus musculus with 9 samples.

Results

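The genes described here handle zinc in the mouse oocyte: 4 zinc importers of the ZIP family (Slc39a6, Slc39a10, Slc39a1 and Slc39a8), 3 zinc exporters of the ZnT family (Slc30a1, Slc30a4 and Slc30a5), the metallothioneins Mt1 and Mt2, and Mtf1, the transcription factor that senses zinc. They were taken by name from the array rows that carry exactly 1 gene symbol, with the row of highest mean over the 9 arrays where a gene had more than 1. All 10 had such a row, among 19938 genes in all. Slc39a1 had a second row, and the other 9 had a single one.

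Each array was hybridised with RNA amplified from a single oocyte. The cells were metaphase II oocytes from unmated ICR females, 2 months old, in which PMSG (10 IU) and then hCG (10 IU, after 46 hours) had induced superovulation. For 3 oocytes the RNA was isolated on Qiagen RNeasy Mini columns, for 3 on Arcturus PicoPure columns, and 3 were lysed directly by the NuGEN procedure, with the crude lysate amplified. No genotype differs between the groups. All shared NuGEN One-Direct amplification and Affymetrix Mouse Gene 1.0 ST arrays. Each condition drew between 1 and 3 cells from each of 3 mice, and 3 oocytes per preparation were put on arrays. The labels do not tie an oocyte to a mouse. Whether oocytes of a group, or of different groups, share a mouse is not known, and the mouse is not in the model. The p-values therefore reflect variation among these oocytes only. The design asks how the preparation changes the transcriptome read from 1 cell.

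Zinc is needed for the oocyte to finish meiosis and to stay arrested at metaphase II. The maturing oocyte accumulates it, largely through the importers encoded by maternal Slc39a6 and Slc39a10, and the fertilized egg releases part of it in bursts known as zinc sparks. ZIP proteins carry zinc into the cytosol, ZnT proteins carry it out of the cytosol into vesicles or out of the cell, and metallothioneins are small cysteine-rich proteins that bind it. Mtf1 activates the metallothionein genes and Slc30a1 when free zinc rises.

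Values are the authors' normalized log2 expression values. A gene was called above background on an array when its value exceeded the 95th percentile of that array's 1231 olfactory, vomeronasal and taste receptor genes, a working limit that lay between 7.19 and 7.48. Levels of different genes come from different probes and are not ranked against each other. Of 12 oocyte markers, 11 lay above background on all 9 arrays and Figla on 8. Of 7 blood and immune cell genes with a row, 5 stayed below background throughout and Cd3e exceeded it throughout. Of 7 oviduct genes, 3 stayed below and Krt8 and Cdh1 exceeded it throughout. The mean log2 value of the cumulus and granulosa cell genes ran from 6.93 to 7.47 with RNeasy, from 6.87 to 7.0 with PicoPure and from 6.97 to 7.13 with direct lysis. The highest was RNeasy replicate 3, and differences, ranges and SDs that rest on that oocyte are given with and without it.

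Of the 10 zinc genes, 7 lay above background on all 9 arrays, 2 on some arrays (Slc39a1 on 7 and Slc39a8 on 5) and Mt2 on none. Of all genes, 43.1% exceeded background throughout and 35.1% nowhere. The count of 7 was the same with any single oocyte left out. It was 8 with the limit at the receptors' 90th percentile and 6 at their 99th, where Mt1 exceeded it on 1 array only.

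**Figure D1:**
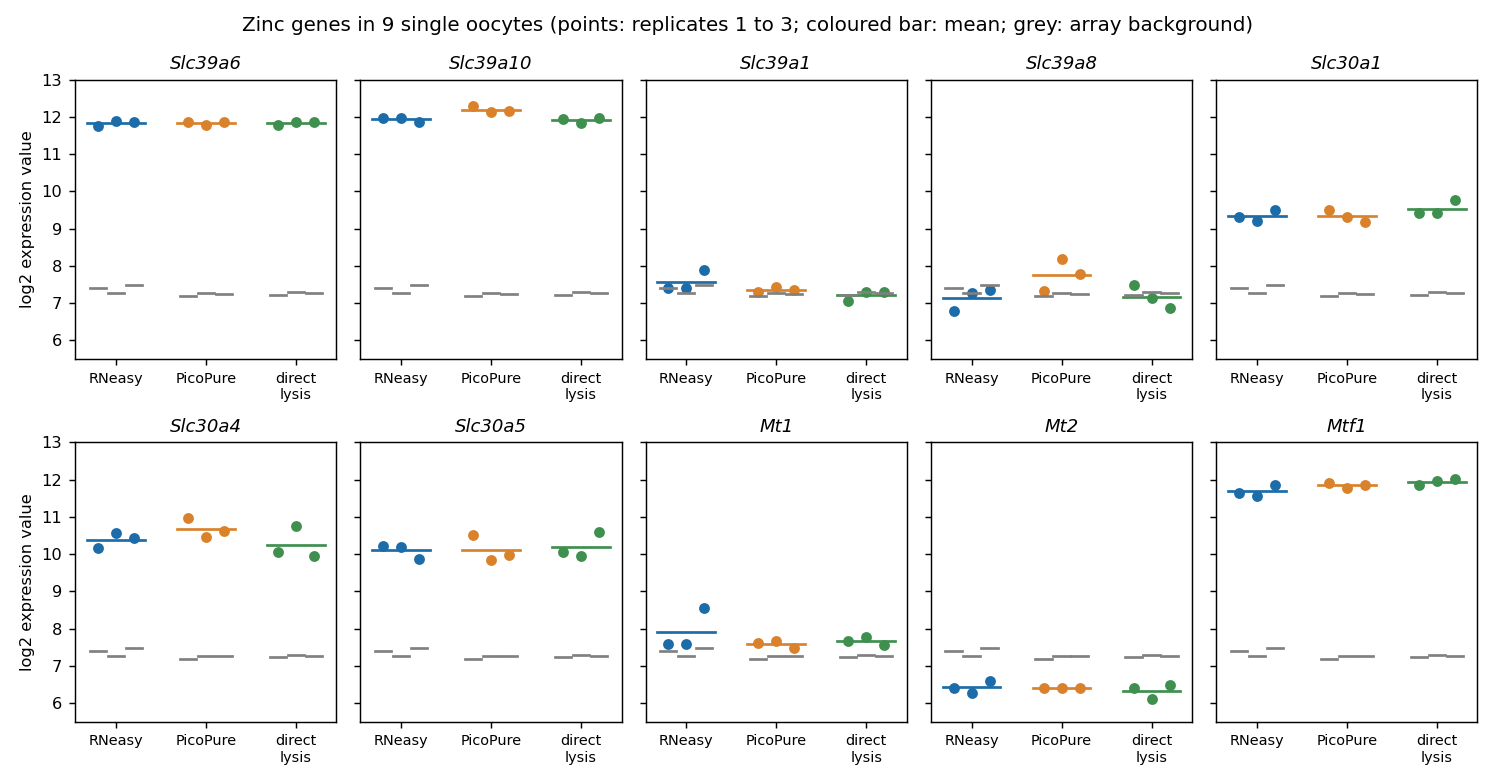
Log2 expression value (vertical axis) of the 10 zinc genes in 9 single oocytes, grouped by preparation; points are oocytes in replicate order, coloured bars are group means (n = 3) and grey ticks are the background level of each array. Slc39a6, Slc39a10 and Mtf1 stand near 12 in all oocytes, Mt2 lies under the grey ticks throughout, and RNeasy replicate 3 stands apart for Mt1 at 8.56.

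The importers Slc39a6 and Slc39a10 were well above background in every oocyte. Slc39a6, whose product sits in the plasma membrane and forms a complex with that of Slc39a10, had 11.75, 11.89 and 11.85 with RNeasy, 11.85, 11.79 and 11.87 with PicoPure and 11.78, 11.87 and 11.86 with direct lysis. All preparations overlapped, and the 9 oocytes spanned only 0.13 log2 units. Its SD within preparations was 0.05, and 3.85% of the 8597 genes above background on all arrays had a smaller one (median 0.19). The difference between direct lysis and purified RNA was 0.00 with a 95% interval of -0.13 to 0.13, which corresponds to 0.916-fold to 1.10-fold (limma, adjusted p = 0.983). Between PicoPure and RNeasy it was 0.01 with an interval of -0.14 to 0.16.

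Slc39a10, the partner importer, had 11.96, 11.98 and 11.86 with RNeasy, 12.28, 12.13 and 12.16 with PicoPure and 11.96, 11.85 and 11.98 with direct lysis. Each PicoPure oocyte lay above all other 6 oocytes, while RNeasy and direct lysis overlapped. PicoPure exceeded RNeasy by 0.25 ± 0.07 SE (interval 0.08 to 0.42), which did not pass the test over all genes (limma, unadjusted p = 0.00917, adjusted p = 0.442). Direct lysis differed from the same PicoPure arrays by -0.26 ± 0.07 SE (interval -0.43 to -0.09, adjusted p = 0.207) and from RNeasy by -0.01 (interval -0.18 to 0.16). Arrays that do not overlap, in either direction, were seen for 13.9% of all genes between PicoPure and RNeasy and for 16.6% between direct lysis and PicoPure.

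The remaining importers were at the edge of detection. Slc39a1, a plasma membrane importer found in most cell types, had 7.40, 7.40 and 7.89 with RNeasy, 7.30, 7.44 and 7.36 with PicoPure and 7.07, 7.29 and 7.30 with direct lysis. The highest value was that of RNeasy replicate 3, and the 3 direct lysis oocytes lay below the 3 RNeasy oocytes. Arrays of that pair did not overlap, in either direction, for 16.9% of all genes. The difference of -0.34 ± 0.14 SE between direct lysis and RNeasy did not pass (adjusted p = 0.358) and was -0.18 without RNeasy replicate 3 (adjusted p = 0.530; 0.167 to 0.753 over all alternatives; limma). The second row for Slc39a1 ran from 7.25 to 7.43 over the 9 oocytes and had 7.35 in RNeasy replicate 3, so the rise in that oocyte appears in 1 of the 2 rows.

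Slc39a8, an importer of zinc and also of manganese and iron, had 6.80, 7.28 and 7.36 with RNeasy, 7.33, 8.17 and 7.77 with PicoPure and 7.49, 7.14 and 6.87 with direct lysis. It was above background on all 3 PicoPure arrays, on 1 RNeasy array and on 1 direct lysis array, and PicoPure overlapped both other groups. The difference between PicoPure and RNeasy was 0.61 ± 0.25 SE with an interval of 0.02 to 1.20 (unadjusted p = 0.0430, adjusted p = 0.610; limma). It was 0.37 with values raised to background, since 2 of the 3 RNeasy values lay below it, and 0.40 without PicoPure replicate 2. Against the same PicoPure arrays direct lysis differed by -0.59 (interval -1.18 to -0.01, adjusted p = 0.403), and by -0.39 without PicoPure replicate 2. At the stricter limit (99th percentile) Slc39a8 exceeded background on 1 array.

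All 3 exporters were above background in every oocyte. Slc30a1, the exporter of the plasma membrane and a target of Mtf1, had 9.31, 9.21 and 9.49 with RNeasy, 9.49, 9.32 and 9.18 with PicoPure and 9.41, 9.42 and 9.76 with direct lysis. The highest was direct lysis replicate 3, and the groups overlapped. Direct lysis differed from purified RNA by 0.20 (interval -0.06 to 0.45, adjusted p = 0.470) and PicoPure from RNeasy by -0.01 (interval -0.31 to 0.29). The first was 0.08 without direct lysis replicate 3 and 0.35 with further quantile normalization.

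Slc30a4, which loads zinc into vesicles and is known for supplying zinc to milk, had 10.16, 10.56 and 10.43 with RNeasy, 10.96, 10.47 and 10.61 with PicoPure and 10.05, 10.77 and 9.95 with direct lysis. Direct lysis held both the lowest value and the second highest, with an SD of 0.44 against 0.21 with RNeasy and 0.26 with PicoPure. The difference between direct lysis and purified RNA was -0.28 (interval -0.74 to 0.19, adjusted p = 0.561) and ran from -0.53 to -0.12 over all alternatives. It was farthest from 0 without direct lysis replicate 2 (limma, adjusted p = 0.192; 0.192 to 0.850 over all alternatives). Slc30a5, which works with the product of Slc30a6 to bring zinc into the secretory pathway, had 10.23, 10.20 and 9.88 with RNeasy, 10.51, 9.85 and 9.99 with PicoPure and 10.06, 9.96 and 10.58 with direct lysis. It spread over 0.74 log2 units with no preparation apart from the others, and its differences were 0.09 (interval -0.35 to 0.54) for direct lysis and 0.01 (interval -0.50 to 0.52) for PicoPure against RNeasy.

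The sensor Mtf1 was well above background in every oocyte, Mt1 was close to it and Mt2 below it. Mtf1 had 11.64, 11.55 and 11.87 with RNeasy, 11.92, 11.76 and 11.87 with PicoPure and 11.87, 11.96 and 12.01 with direct lysis. RNeasy held the lowest 2 of the 9 values. RNeasy replicate 3 overlapped both other groups, direct lysis only by a value equal to that of direct lysis replicate 1 (11.87). Direct lysis exceeded purified RNA by 0.18 ± 0.08 SE (interval -0.01 to 0.37, adjusted p = 0.374) and RNeasy alone by 0.26 ± 0.10 SE (interval 0.04 to 0.48, adjusted p = 0.301; limma). Without RNeasy replicate 3 these differences were 0.23 and 0.35, neither past the threshold.

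Mt1 had 7.58, 7.58 and 8.56 with RNeasy, 7.60, 7.67 and 7.48 with PicoPure and 7.67, 7.79 and 7.55 with direct lysis. Outside RNeasy replicate 3 its values ran from 7.48 to 7.79, and RNeasy replicate 3 stood 0.77 above the next oocyte. The difference between PicoPure and RNeasy was -0.32 (interval -0.89 to 0.25, adjusted p = 0.787) with that oocyte and 0.00 without it. Between direct lysis and purified RNA it was -0.08 with it and 0.09 without it (limma, adjusted p = 0.898 and 0.634). Over all alternatives the adjusted p of these differences ran from 0.362 to 1.0 and from 0.634 to 0.988. Mt2, which lies next to Mt1 in the genome, had 6.41, 6.27 and 6.60 with RNeasy, 6.40 in all 3 PicoPure oocytes and 6.40, 6.11 and 6.49 with direct lysis. All 9 values were below background, so neither a fold nor an order of the oocytes is given.

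Of the 11 listed cumulus and granulosa cell genes with a row, 8 were highest in the oocyte in which Mt1 was highest. The hyaluronan-linking Tnfaip6 had 8.39 in RNeasy replicate 3 and between 6.34 and 7.03 in the other 8 oocytes. Inhba, the activin subunit gene of granulosa cells, had 8.47 against 6.78 to 7.21, and the prostaglandin synthase gene Ptgs2 had 7.56 against 6.24 to 6.94. These 3 were picked because they were above background on this array alone, so their height there follows from that choice. Foxl2 and Nr5a1, the listed cumulus and granulosa genes above background on all 9 arrays, were not highest there: Foxl2 lay 0.39 and Nr5a1 0.23 below the highest other oocyte. Of the 11 listed genes with a row, 5 lay above background on this array and 2 or 3 on each other array. The other 6 genes, Has2 (6.46) and Ptx3 (7.46) among them, stayed below background in this oocyte, on the array with the highest background level. Ptx3 exceeded background on 2 other arrays. Of all genes, 18.5% had their highest value on this array, against 7.12% to 13.7% on each other array. On this array 2.53% of all genes stood apart above the other 8 oocytes by the gap test used for Mt1, against 0.527% to 1.88% on each other array. The part of cumulus cell RNA in the Mt1 and Slc39a1 values of this oocyte was not tested.

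**Figure D2:**
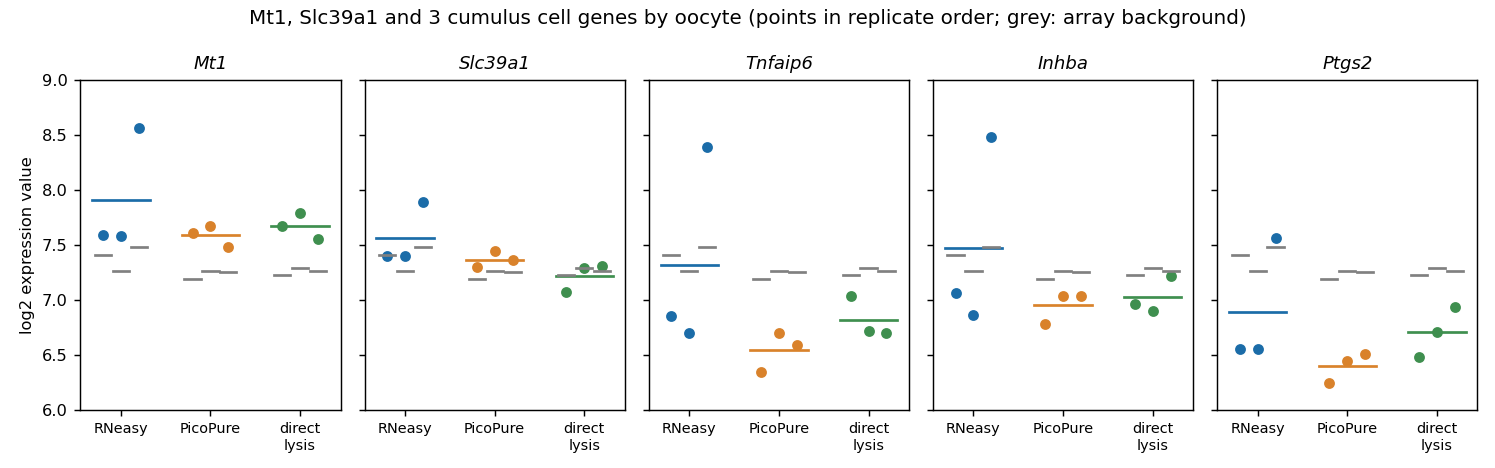
Log2 expression value (vertical axis) of Mt1, Slc39a1 and the cumulus cell genes Tnfaip6, Inhba and Ptgs2 by preparation; points are oocytes in replicate order, coloured bars are group means (n = 3) and grey ticks are array background levels. The cumulus genes shown were picked as those above background in the third RNeasy oocyte alone, so their height there follows from that choice. That oocyte is the highest point for Mt1 (8.56), Slc39a1 (7.89) and Tnfaip6 (8.39). Foxl2 and Nr5a1, not shown, were not highest there.

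Mtf1 binds metal response elements, whose core was searched as TGCACNC and TGCGCNC on both strands in the 250 bases before the transcript start that RefSeq's GRCm38.p6 promoter table gives. Such windows were searched for 9 of the 10 genes. Sequences of 3 genes that Mtf1 is known to activate are shown: the whole window of Mt2, which held 3 cores, and 30 bases around the core of Mt1 and of Slc30a1. Capitals mark the cores.
Mt2 (chr8:94172368-94172617, plus strand): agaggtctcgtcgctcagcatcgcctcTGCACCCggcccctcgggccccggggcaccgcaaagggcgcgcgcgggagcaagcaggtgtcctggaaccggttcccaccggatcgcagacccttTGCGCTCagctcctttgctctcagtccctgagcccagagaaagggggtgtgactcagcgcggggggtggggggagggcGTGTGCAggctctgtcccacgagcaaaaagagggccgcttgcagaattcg
Mt1 (chr8:94179055-94179084, plus strand): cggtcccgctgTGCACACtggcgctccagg
Slc30a1 (chr1:191906727-191906756, plus strand): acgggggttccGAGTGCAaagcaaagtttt

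The Mt2 window held 3 cores, at 223, 128 and 50 bases before the start, a number reached by 1.26% of the 32851 windows in the table. The Mt1 window held 1, 23 bases before the start, and the Slc30a1 window 1, on the minus strand 43 bases before it. At least 1 core was present in 21.4% of all windows. Among the other zinc genes, Slc30a4 had 2, Slc30a5 had 1, Slc39a8 had 1 in the second of its 2 windows, and none was found for Slc39a10, Slc39a1 or Mtf1. Slc39a6 was not searched, so whether it has a core is not known. Of the genes with a core, Mt1, Slc30a1, Slc30a5 and Slc39a8 begin in RefSeq upstream of the transcript start used here. Their cores therefore lie inside the annotated gene span. Bases after the start, and those farther upstream than 250 bases, were not searched, and any cores there are missed. The counts for Mt1, Slc30a1, Slc30a5 and Slc39a8 are therefore not full counts of their cores and are not compared with that of Mt2. A core is a match of letters, and binding was not tested.

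None of the 10 genes passed the threshold of 0.05 on the adjusted p in any comparison (limma, 1 fit over all genes). Direct lysis against purified RNA called 1.01% of all genes, PicoPure against RNeasy 0.0602%, direct lysis against RNeasy 0.436% and direct lysis against PicoPure 0.597%. At an unadjusted p under 0.05 the zinc genes numbered 0, 2, 2 and 2 in these comparisons, where all genes gave 14.2%, 7.98%, 13.4% and 12.3%. The pairwise comparisons share arrays: Slc39a8 and Slc39a10 account for the count of 2 both in PicoPure against RNeasy and in direct lysis against PicoPure, and Slc39a1 and Mtf1 for that in direct lysis against RNeasy. The median difference of the 10 genes between direct lysis and purified RNA was -0.08, beside 0.00 for all genes, with 4 positive and 6 negative. Between PicoPure and RNeasy it was 0.01, beside -0.03 for all genes. A p that misses the threshold does not show equal levels. For direct lysis against purified RNA the intervals of the 10 genes reached from -0.80 (Slc39a8) to 0.54 (Slc30a5).

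**Figure D3:**
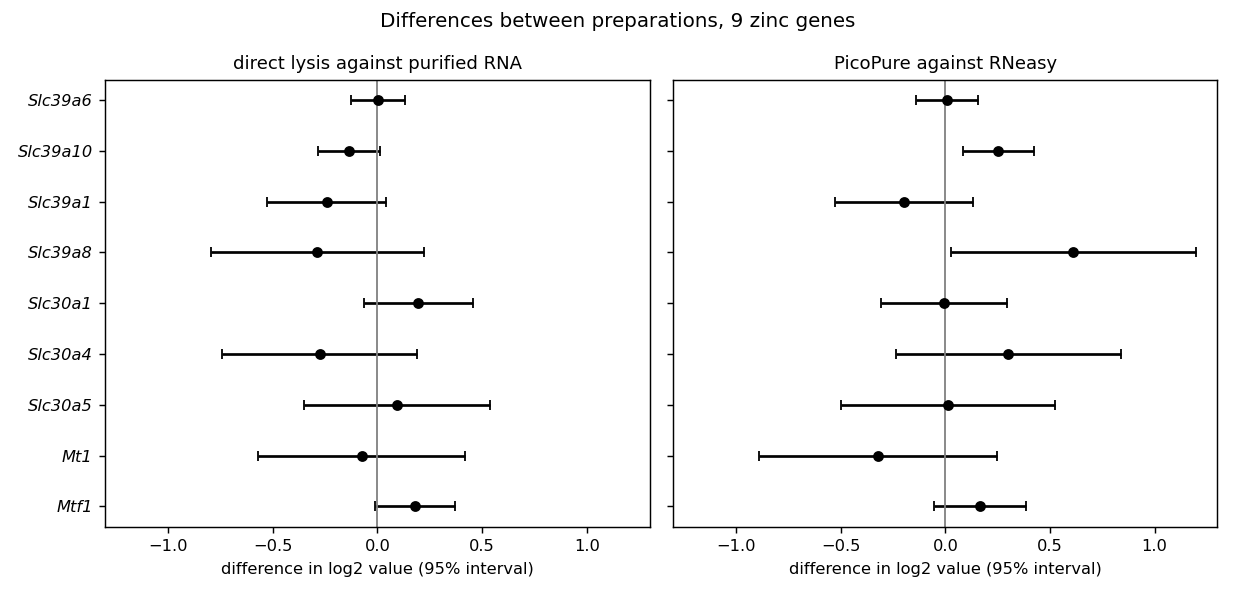
Difference in log2 value (horizontal axis) with its 95% interval from limma for 9 zinc genes, direct lysis minus purified RNA (left, 3 against 6 oocytes) and PicoPure minus RNeasy (right, 3 against 3); Mt2 is left out because it lay below background throughout. Intervals are narrow for Slc39a6 (-0.13 to 0.13 on the left) and wide for Slc39a8 (0.02 to 1.20 on the right).

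The genes differed in how much they varied from oocyte to oocyte. The SD within preparations was 0.05 for Slc39a6, 0.07 for Slc39a10 and 0.11 for Mtf1, below the median of 0.19 for the genes above background on all arrays. It was 0.17 for Slc30a1, 0.30 for Slc30a5, 0.32 for Slc30a4 and 0.34 for Mt1. Without RNeasy replicate 3 it was 0.096 for Mt1 and 0.073 for Mtf1, with a median of 0.19 over genes. For Slc39a8, near background, it was 0.35. The deposited values contain exact repeats between arrays, which hold for 54.0% of rows with 1 symbol. Mt2 had the same value on 4 arrays, Mtf1 on 3 and Slc39a6 on 2. The SD of 0 for Mt2 with PicoPure is therefore not a measure of how alike those oocytes were. Repeats of Mtf1 and Slc39a6 lay in different preparations, and what such repeats do to their SDs was not tested.

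The correlation of Mt1 with Mt2 over the 9 oocytes cannot be read as a relation between the genes, because Mt2 was below background on every array and had the same value on 4. Pearson's r was 0.43 (exact permutation p = 0.234, adjusted over 2 relations 0.468) and Spearman's rho -0.01 (exact permutation p = 0.989, adjusted 0.989). It was -0.06 without RNeasy replicate 3 and direct lysis replicate 2, the farthest from the median of Mt1, and 0.43 with each preparation centred on its mean. For the partner importers Slc39a6 and Slc39a10, r was 0.01 (exact permutation p = 0.973, adjusted 0.973) and rho 0.06 (exact permutation p = 0.887, adjusted 0.989), and r was -0.32 without RNeasy replicate 1 and direct lysis replicate 1. With 3 oocytes per preparation no value within a preparation was computed.

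Among the 7 of the 10 genes that were above background on all arrays, Mt1 had the widest range, 1.08 log2 units, followed by Slc30a4 with 1.01. Without RNeasy replicate 3 the range of Mt1 was 0.31 and that of Slc30a4 still 1.01. The 3 genes whose profile over the 9 oocytes was closest to it, by the root mean square difference of mean-centred values among 8590 genes above background on all arrays, were Dnajb12 (0.09), AU019990 (0.09) and Abcd3 (0.10), where the median gene had 0.38. RNeasy replicate 3 was the highest oocyte for each, with 8.96, 8.43 and 11.78. Without that oocyte these genes were number 198, 50 and 762 in likeness to Mt1, so their place rests on it.

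Among the remaining zinc genes, all 20 of the list had a row, 9 exceeded background throughout and 6 nowhere. Of the 10 other importers these numbers were 6 and 3, and of the 7 other exporters 1 and 3. The 6 importers were Slc39a3 and Slc39a4 of the plasma membrane, Slc39a5, Slc39a7 of the endoplasmic reticulum, Slc39a9 and Slc39a13. Slc39a9 ran from 7.71 to 8.86, and the other 5 stayed within 7.39 to 8.21. Slc30a6, the partner of Slc30a5, ran from 6.36 to 6.91 and was below background on all arrays. The metallothionein gene Mt3, known from brain, ran from 8.0 to 8.44, and Tmem163, which encodes a zinc transporter of synaptic vesicles, from 7.55 to 7.89. Of the 9 genes above background throughout, some lay close to it. The smallest margin on an array was 0.05 for Slc39a4, 0.14 for Tmem163 and 0.19 for Slc39a13. Stricter limits were not applied to the 20 genes. None of the 20 passed in any of the 4 comparisons (limma), with 2, 1, 2 and 2 at an unadjusted p under 0.05 in the order given above.

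The exporter among them that was above background on all arrays was Slc30a3, known for loading zinc into synaptic vesicles of neurons. It had 10.42, 10.39 and 10.57 with RNeasy, 10.69, 10.73 and 10.78 with PicoPure and 10.79, 11.06 and 11.25 with direct lysis. The 3 preparations did not overlap, though the highest PicoPure value was 10.78 and the lowest direct lysis value 10.79. Direct lysis exceeded purified RNA by 0.44 ± 0.10 SE (interval 0.20 to 0.67, adjusted p = 0.107) and RNeasy alone by 0.57 ± 0.12 SE (adjusted p = 0.0948), neither past the threshold in limma. Both passed without direct lysis replicate 1 (0.56 and 0.69, adjusted p = 0.0403 and 0.0407), and over all alternatives the adjusted p ran from 0.0403 to 0.215 and from 0.0407 to 0.280. In direct lysis against purified RNA, 8.02% of all genes had arrays without overlap. The share was 13.9% between PicoPure and RNeasy and 16.6% between direct lysis and PicoPure. The share of genes with all 3 preparations apart was not computed.

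**Figure D4:**
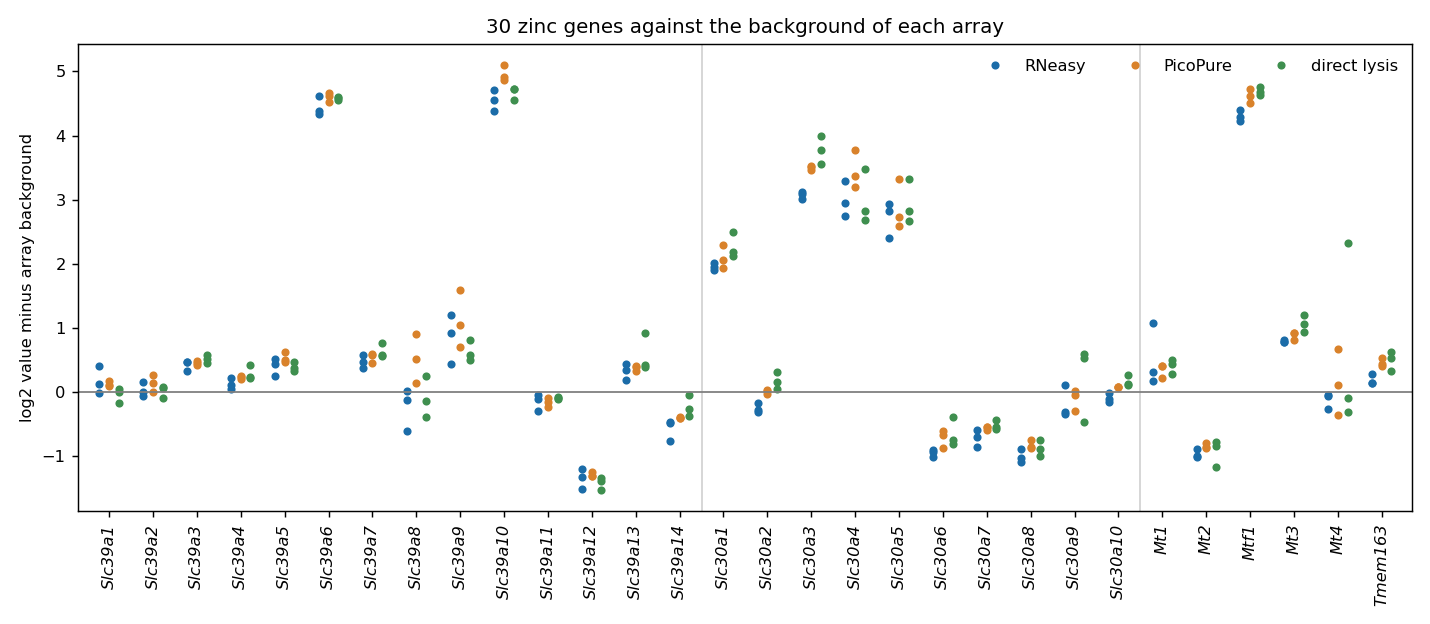
Log2 value minus the background level of the same array (vertical axis) for 30 zinc genes, importers (left), exporters (middle) and metallothioneins, Mtf1 and Tmem163 (right); each point is 1 oocyte, coloured by preparation, with 9 points per gene. Slc39a6, Slc39a10, Slc30a1, Slc30a3, Slc30a4, Slc30a5 and Mtf1 lie well over the zero line in all 9 oocytes, and Mt2 lies under it in all 9.

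Of the egg proteins that depend on zinc, Fbxo43 (Emi2), which binds zinc and holds the anaphase-promoting complex inactive at metaphase II, was lower in direct lysis. It had 11.40, 11.85 and 11.11 with direct lysis and between 12.25 and 12.57 in the 6 purified oocytes, with no overlap. The difference from purified RNA was -1.01 ± 0.15 SE (limma, adjusted p = 0.0283). It ran from -1.21 to -0.83 over 15 alternatives, of which 6 kept it past the threshold (adjusted p from 0.00898 to 0.0832). Leaving out any 1 oocyte other than direct lysis replicate 2 ended the call, as did the replicate block (adjusted p = 0.0644). Astl, the zinc protease ovastacin of the cortical granules, had a median of 10.52 over the 9 oocytes (9.86 to 10.95) and a difference of 0.31 between direct lysis and purified RNA (interval -0.14 to 0.76, adjusted p = 0.509).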

How the data were processed

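Gene expression was read on 9 arrays, 1 oocyte each. The deposited table holds the authors' normalized log2 expression values for 35556 rows; the log2 scale was read from the range of the values (2.41 to 13.9; array medians 7.12 to 7.24). The submitters' processing notes list GCOS, Affymetrix Expression Console and GCRMA. No scanner files were used, so what the normalization did to low values is unknown, and precision is limited by the number of arrays. The arrays' genome build is not given in these sources. By the platform annotation 21789 rows had 1 symbol, 1621 several and 12146 none. Keeping 1 row per gene left 19938 genes, of which 19856 matched RefSeq by Entrez identifier.

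One limma model (version 3.58.1, R 4.3.3) with 3 groups and 6 residual degrees of freedom gave all differences (two-sided, Benjamini-Hochberg over all genes, threshold 0.05); it was tested on simulated data. Correlations used exact permutation, two-sided. Named were the 10 genes, those of 20 further zinc genes that passed the threshold or exceeded background throughout, Fbxo43, Astl, and the 3 genes most like the member of widest range among those above background on all arrays; Slc30a6 and Mt4 were named after their values were seen. The members and lists were chosen with earlier results of these data known. Alternatives covered normalization, low values, rows, the variance model, the arrays fitted, a replicate block and leaving out each oocyte. Replicate numbers were not taken to pair oocytes, since they share no stated animal or batch. Deviations of same-numbered oocytes correlated between -0.068 and 0.115, and those of differently numbered oocytes between -0.093 and 0.139. Of the 9 oocytes, 6 correlated best with an oocyte of their own number. These values do not settle whether the numbers pair oocytes.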

Additional observations from a re-analysis of the deposited data

Results flagged for a closer look

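For Mt1, RNeasy replicate 3 had 8.56, and its gap to the next oocyte, relative to the whole range, exceeded Dixon's 95% critical value both among the 6 purified oocytes (7.48 to 7.67 in the others) and among all 9 (7.48 to 7.79 in the others). For Slc39a1, RNeasy replicate 3 had 7.89, which also stood apart among the 6 purified oocytes (7.30 to 7.44 in the others) and among all 9 (7.07 to 7.44 in the others). These were the only ones of the 10 genes whose extreme oocyte stood apart. Chance alone sets apart a sample in about 1 in 20 groups, and the 2 sets of oocytes overlap. Over all 19938 genes, 18.0% had an oocyte standing apart from the other 8 at either end, near the share of the 10 genes, 2 of 10. An oocyte stood apart above the others for 10.9% (2175 genes), and for 505 of these it was RNeasy replicate 3.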

How the results depend on the processing

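None of the 40 differences (10 genes, 4 comparisons) passed the threshold in any of the 666 alternatives (limma, lowest adjusted p 0.105), and 21 of them kept their sign in every alternative. The lowest was reached with values raised to background, for Slc39a10 and Mt2 in PicoPure against RNeasy. There 8894 genes had an unadjusted p under 0.05 in limma, against 1591 without that step. For Mt2 it compares background levels only. The sign turned in 44 alternatives. With median centring, Slc39a6 had -0.0166 against purified RNA, -0.0057 against RNeasy and -0.0275 against PicoPure, and Slc30a1 had 0.0074 for PicoPure against RNeasy. With further quantile normalization, Slc39a10 had 0.0426 for direct lysis against RNeasy, and Slc30a5 had -0.0639 and Mt2 0.0316 for PicoPure against RNeasy. With values raised to background, Slc39a8 had -0.0438 for direct lysis against RNeasy and Mt2 0.0243 for direct lysis against PicoPure. In that last setting every Mt2 value became the background level of its array, so 0.0243 compares those levels only. Raised Slc39a8 values took the levels 7.41 and 7.48 with RNeasy and 7.29 and 7.26 with direct lysis. The cause of the other turns was not tested. Mt2 lay below background on every array, so its values in the other settings describe background signal.

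Differences that turned when an oocyte was left out had these ranges. For direct lysis against purified RNA, Slc39a6 ran from -0.0158 to 0.0307, Slc30a5 from -0.1005 to 0.2131, Mt1 from -0.1581 to 0.0874 and Mt2 from -0.1542 to 0.0309. For PicoPure against RNeasy, Slc39a6 ran from -0.0319 to 0.0352, Slc30a1 from -0.0864 to 0.0696, Slc30a5 from -0.1843 to 0.1463, Mt1 from -0.4874 to 0.0035 and Mt2 from -0.1025 to 0.0633. For direct lysis against RNeasy, Slc39a6 ran from -0.0317 to 0.0354, Slc39a10 from -0.0441 to 0.0324, Slc39a8 from -0.1545 to 0.167, Slc30a4 from -0.3813 to 0.0257, Slc30a5 from -0.0942 to 0.2195, Mt1 from -0.4018 to 0.0892 and Mt2 from -0.1687 to 0.0189. For direct lysis against PicoPure, Slc39a6 ran from -0.0229 to 0.027, Slc30a5 from -0.1069 to 0.2828 and Mt2 from -0.1422 to 0.0429.

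The count of all genes past the threshold moved more. Direct lysis against purified RNA gave 201, and 24 to 232 with single oocytes left out. Each of the 6 purified oocytes left out lowered it, to 24 without RNeasy replicate 1. It was also lower, at 146, without direct lysis replicate 2 or 3, and higher, at 232, without direct lysis replicate 1. PicoPure against RNeasy gave 12, and 0 to 15 with single oocytes left out; at an unadjusted p under 0.05 it had 1591. Direct lysis against RNeasy gave 87, and 3 (without RNeasy replicate 1) to 95. Direct lysis against PicoPure gave 119, and 14 (without PicoPure replicate 2) to 123. With only the arrays compared, fewer samples entered the fit and the last 3 comparisons gave 0, 3 and 0. The trend and robust variance model gave 0 for PicoPure against RNeasy, and further quantile normalization gave 73 for direct lysis against PicoPure. Quantile normalization also changed the split for direct lysis against purified RNA from 68 higher and 133 lower to 75 higher and 83 lower.

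With the replicate number as a block the 4 counts were 25, 0, 15 and 17, and 0 of the 10 zinc genes passed. Replicate numbers share no stated animal or batch. Of 9 oocytes, 6 correlated best with an oocyte of their own number, a hint from the data only. The highest correlation was 0.115 between oocytes of the same number and 0.139 between oocytes of different numbers.

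The correlation of Mt1 with Mt2 was -0.0594 without the 2 oocytes farthest from the median, and ran from -0.654 (without RNeasy replicate 3) to 0.7526 (without direct lysis replicate 2). That of Slc39a6 with Slc39a10 was -0.3185 without the 2 farthest, -0.0459 centred by preparation, -0.2563 with quantile normalization and -0.1226 to 0.1696 with 1 oocyte left out. The filter on low values removed Mt2, which then has no value, and for direct lysis against purified RNA the arrays compared are all 9. Leaving out each oocyte for the count of genes above background, and RNeasy replicate 3 for ranges, SDs and likeness, was added after seeing the data. Signal close to background limits what can be said of Slc39a1, Slc39a8, Mt1 and Mt2, and of further zinc genes near it, such as Slc39a4 and Tmem163.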

Other observations

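Mt4, a metallothionein gene known from squamous epithelia and named here after its values were seen, had 9.62 in direct lysis replicate 2 and between 6.90 and 7.86 in the other 8 oocytes. It was above background on 3 arrays. Mt1 in that oocyte was 7.79.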
